A study of Mus musculus with 6 samples.

Results

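Transcripts of 7 muscle-secreted signalling factors (Fndc5, Ostn, Il15, Metrnl, Apln, Gdf15 and Fgf21) were followed in whole gastrocnemius, a calf muscle, of denervated and control mice. The members were the rows of the gene table that carry these symbols, 7 of 22187 rows in all. In the denervated group, the left sciatic nerve of 3 mice had been interrupted by taking out 2 mm of it, and the left muscle was collected 2 weeks afterwards. In the control group, the left muscle came from 3 normal mice. All 6 animals were male C57BL/6J mice aged 12 weeks, with no transgene or drug named. The controls were not described as operated, so effects of the operation and of the lost nerve cannot be told apart.

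Skeletal muscle releases peptides and cytokines, often called myokines, that act on the muscle itself or travel in blood to bone, fat, heart and brain. Several of them are known to follow contraction or metabolic stress, and a muscle without its nerve no longer contracts on command. The 7 genes encode a membrane protein whose outer part is shed (Fndc5), 2 peptides (Ostn and Apln), a cytokine (Il15), a secreted protein of muscle and fat (Metrnl) and 2 factors known as signals of cell stress (Gdf15 and Fgf21).

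Levels are given as deposited. Read from the values themselves, they are in the unit TPM, which allows for the length of each transcript, times a single factor for each library, between 0.977 and 1.07 in denervated and between 1.06 and 1.13 in control libraries. The depth of the libraries is unknown, since TPM keeps no record of reads. Every fold change is the denervated less the control mean of log2(level + 1), a scale that understates the change of low genes. They were tested with limma in the 12392 genes that reached a level of 0.5 in at least 3 of the 6 libraries, with p-values adjusted over all of these genes and called below 0.05. Of all genes tested, 47.3% were called (24.3% lower and 22.9% higher), so a call on its own was common. Protein-coding transcripts made up 18.1% ± 0.770 of the total in denervated and 31.7% ± 0.977 in control muscle (SD, n = 3 each). Setting those totals equal moved the median log2 fold change of all genes from -0.01 to 0.60 and changed many calls, as given below for the named genes.

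Of the 7 members, Fndc5, Ostn and Il15 fell, Metrnl and Apln overlapped between the groups, and Gdf15 and Fgf21 were higher in all 3 denervated muscles at very low levels. The first 3 and Metrnl passed the level filter, 3 of these 4 were called lower and none higher, whereas Apln, Gdf15 and Fgf21 did not pass. Ostn and Il15 passed it only through the controls, so their calls cannot be counted as support for a common direction of the tested members. The groups did not overlap for 5 of the 7 members, 3 lower and 2 higher, against 40.8% of the 22156 rows above 0 in any library (19.4% lower and 21.4% higher). Among genes past the filter the groups were apart for 57.5% (29.7% lower and 27.8% higher), and for 3 of the 4 tested members.

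**Figure D1:**
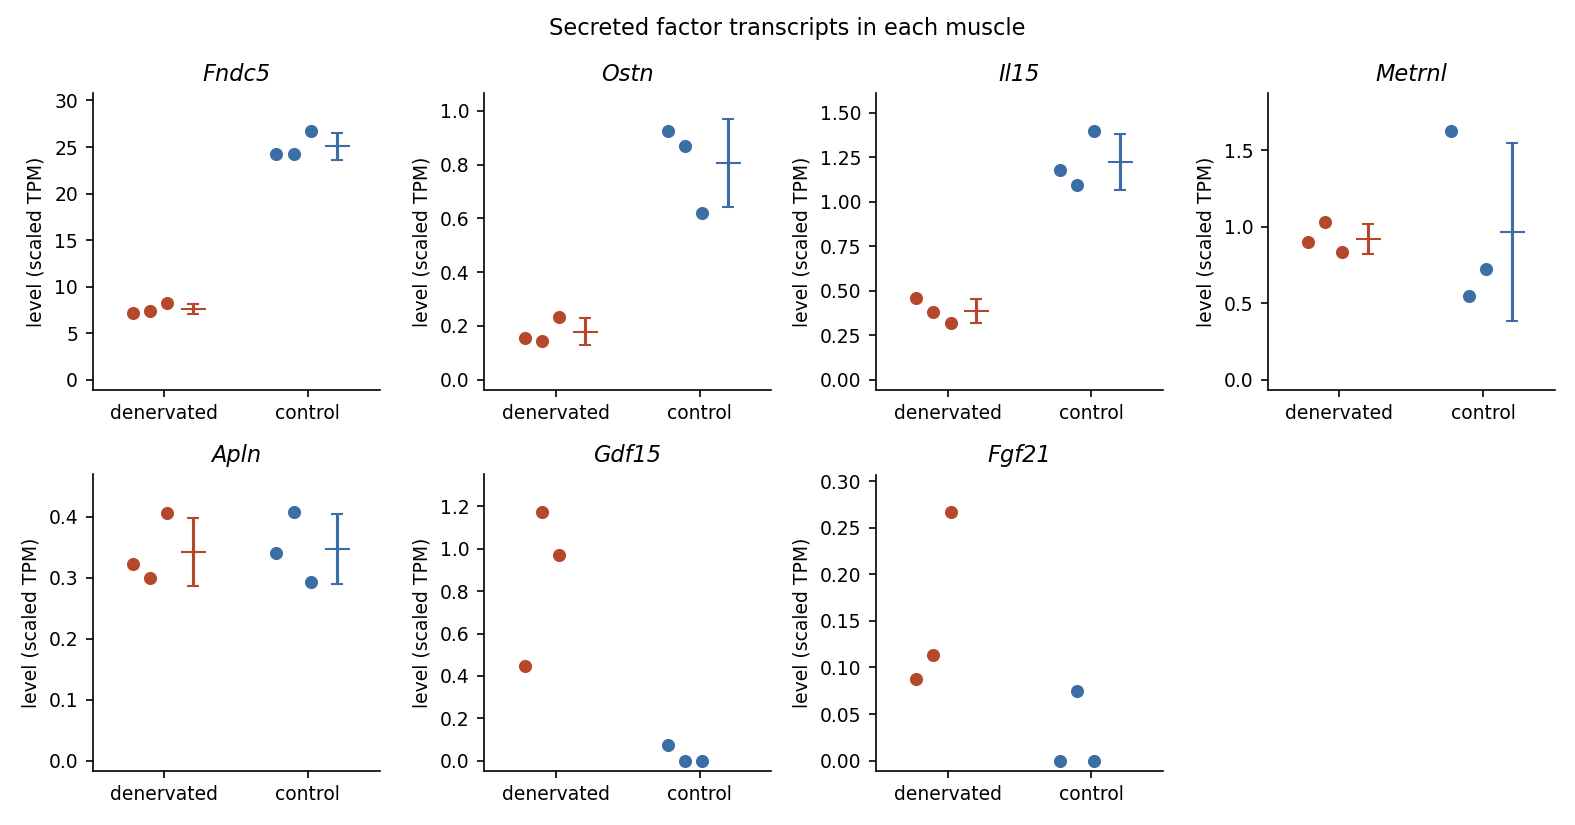
Level of each member (scaled TPM, linear axes that differ between panels) in the 3 denervated (left) and 3 control (right) muscles; points are single mice, and the dash with its bar is the mean ± SD, left out for Gdf15 and Fgf21 because libraries are listed at 0. Fndc5, Ostn and Il15 lie lower in every denervated muscle, Gdf15 and Fgf21 lie higher, and the groups overlap for Metrnl and Apln.

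Fndc5 encodes a membrane protein whose shed outer part is known as irisin, and in mouse muscle its transcription is known to respond to the coactivator PGC-1alpha. Its level was 7.19, 7.40 and 8.25 in the denervated muscles, against 24.2, 24.3 and 26.7 in the controls. The groups were far apart, with little spread inside either. The means were 7.61 ± 0.560 in denervated and 25.1 ± 1.45 in control muscle (SD, n = 3 each), or 0.304 of the control level. Fndc5 (ENSMUSG00000001334) had a log2 fold change of -1.60 (SE 0.090, adjusted p = 8.49e-06). It was by far the most abundant member: its mean lay above 81.7% of protein-coding rows in denervated and above 94.2% in control muscle. With equal protein-coding totals the fold change was -0.77 (adjusted p = 0.000123), which is 1.37 below the median of all genes under that scaling.

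In bulk muscle, fewer fibres and less RNA per fibre cannot be told apart, so Fndc5 was also set against fibre markers in the same library, a ratio that no scaling of whole libraries can move. The summed level of 6 fibre markers (Acta1, Ckm, Ttn, Myh4, Des and Mb) was 9349 to 11161 in denervated and 22822 to 26119 in control muscle. Of these markers 4 fell and 1, Des, rose as deposited, whereas Acta1 and Ttn were not called with equal protein-coding totals (-0.26 and -0.04) and Mb was called higher. Per 1000 units of that sum, Fndc5 stood at 0.645, 0.792 and 0.739 in the denervated muscles, against 1.06, 1.06 and 1.02 in the controls. The groups did not overlap (exact two-sided permutation test, p = 0.1, the smallest that 3 mice against 3 can give). The direction depended on the marker. Fndc5 was lower without overlap relative to Acta1, skeletal actin, Ttn, titin, Des and Mb. Per 1000 units of Des it averaged 10.8 ± 0.838 in denervated and 54.6 ± 4.61 in control muscle (SD, n = 3 each). Per 1000 units of Mb it averaged 3.47 ± 0.246 in denervated and 13.8 ± 0.228 in control muscle (SD, n = 3 each). Fndc5 was higher relative to Myh4, a fast myosin heavy chain, which fell further than Fndc5. Per 1000 units of Myh4, Fndc5 averaged 12.0 ± 1.3 in denervated and 5.63 ± 0.606 in control muscle (SD, n = 3 each), without overlap (exact p = 0.1). Relative to Ckm, muscle creatine kinase, the groups overlapped, at 5.71, 8.20 and 6.76 in denervated and 5.62, 6.00 and 5.35 in control muscle. The same split held for Ostn and Il15. Both were lower without overlap per unit of the summed markers, Acta1, Ttn, Des and Mb. They overlapped per unit of Ckm and were higher without overlap per unit of Myh4.

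Ppargc1a, which encodes PGC-1alpha, fell in the same muscles. Its level averaged 5.64 ± 0.912 in denervated and 13.7 ± 1.49 in control muscle (SD, n = 3 each), without overlap (log2 fold change -1.15, SE 0.127, adjusted p = 0.000237). Esrra, the nuclear receptor ERRalpha that works with PGC-1alpha, averaged 17.3 ± 4.46 in denervated and 33.5 ± 0.973 in control muscle (SD, n = 3 each), a log2 fold change of -0.95 (adjusted p = 0.00255). Esrra was no longer called with equal protein-coding totals (-0.09, adjusted p = 0.632), whereas Ppargc1a was still lower (-0.35, adjusted p = 0.0412). The ratio of Fndc5 to Ppargc1a was 1.44, 1.11 and 1.58 in denervated and 1.70, 1.64 and 2.23 in control libraries. These groups lay close together without overlap (exact two-sided permutation test, p = 0.1). The part of either regulator in the Fndc5 level was not tested.

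The promoter window of Fndc5 is shown because Fndc5 was by far the most abundant member. RefSeq (GRCm38.p6) gives the window from 250 bases before to 50 bases after the gene's start, chr4:129136749-129137048 on the plus strand. It consists of G and C for 82.3% of its 300 bases. None of 5 searched motifs was in it on either strand: the E-box bound by myogenic factors (CANNTG), a MEF2-like motif (CTA and TAG with any 4 bases between), a C/EBP-ATF motif of the stress response (TGATGNAA), a FOXO motif (GTAAACA) and the ERR motif (AAGGTCA). The E-box was in 72.3% of the 32851 promoter windows of the table and the ERR motif in 4.72%. Capitals would mark a match, and there is none.
Fndc5: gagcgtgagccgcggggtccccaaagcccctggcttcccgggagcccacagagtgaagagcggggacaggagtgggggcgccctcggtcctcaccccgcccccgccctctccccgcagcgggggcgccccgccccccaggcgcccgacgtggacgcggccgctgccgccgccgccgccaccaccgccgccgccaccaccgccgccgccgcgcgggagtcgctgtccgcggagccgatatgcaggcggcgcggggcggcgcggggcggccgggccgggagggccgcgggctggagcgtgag

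Ostn encodes osteocrin, also called musclin, a peptide that binds the natriuretic peptide clearance receptor encoded by Npr3 and so spares natriuretic peptides. Its level was 0.156, 0.144 and 0.235 in denervated muscles, against 0.926, 0.870 and 0.620 in controls. Every denervated value lay below every control value, although all 6 values were low. The means were 0.178 ± 0.049 in denervated and 0.805 ± 0.163 in control muscle (SD, n = 3 each), or 0.221 of the control level. Ostn (ENSMUSG00000052276) had a log2 fold change of -0.61 (SE 0.098, adjusted p = 0.00158), where the pseudocount of 1 exceeds the levels themselves; with a pseudocount of 0.1 it was -1.70 (adjusted p = 0.00165). In the GENCODE M21 annotation Gm32312 and Gm15970 overlap Ostn on the opposite strand. The strand setting of the counting is not known here, so their reads cannot be separated from those of Ostn.

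Its receptor moved the other way. Npr3 rose to 3.60, 3.96 and 4.65 in denervated muscles, against 1.08, 2.65 and 1.72 in controls, with a log2 fold change of 0.88 (SE 0.197, adjusted p = 0.00791). The denervated group lay above the controls, among which control 1 was lowest. The signalling receptors of natriuretic peptides were lower as deposited: Npr1, the receptor of the atrial and B-type peptides, at 1.66 ± 0.284 in denervated and 2.82 ± 0.630 in control muscle, and Npr2, the receptor of the C-type peptide, at 6.50 ± 0.833 in denervated and 8.77 ± 1.18 in control muscle (SD, n = 3 each). The call of Npr1 (log2 fold change -0.51, adjusted p = 0.0194) was lost without denervated 2 (adjusted p = 0.0615). The call of Npr2 (-0.38, adjusted p = 0.0353) was lost without denervated 1, denervated 2 or control 3 (adjusted p = 0.110, 0.0975 and 0.108). Under equal protein-coding totals Npr1 was not called (0.096, adjusted p = 0.536) and Npr2 was called higher (0.41, adjusted p = 0.0134). The peptide genes Nppa and Nppc stayed below the level filter.

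Il15 encodes interleukin 15, a cytokine that supports natural killer and memory T cells and is usually presented bound to its own receptor chain, Il15ra. Its level was 0.459, 0.381 and 0.321 in denervated muscles, against 1.18, 1.10 and 1.40 in controls. The denervated values lay well below the control values. The means were 0.387 ± 0.069 in denervated and 1.23 ± 0.156 in control muscle (SD, n = 3 each), or 0.316 of the control level. Il15 (ENSMUSG00000031712) had a log2 fold change of -0.68 (SE 0.094, adjusted p = 0.000725). With a pseudocount of 0.1 it was -1.45 and with 0.01 it was -1.64 (adjusted p = 0.000925 and 0.00117).

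Il15ra, the private receptor chain, fell as well, to 0.612 of the control level. It was at 5.40, 6.07 and 6.53 in denervated muscles, against 9.82, 9.18 and 10.4 in controls (log2 fold change -0.63, SE 0.097, adjusted p = 0.00131), without overlap, but was not called with equal protein-coding totals (0.17, adjusted p = 0.142). The ratio of Il15ra to Il15 was 11.8, 15.9 and 20.3 in denervated and 8.32, 8.37 and 7.44 in control libraries. The receptor therefore stood higher relative to the cytokine in every denervated library (exact two-sided permutation test, p = 0.1). The common gamma chain Il2rg was not called (log2 fold change 0.21, adjusted p = 0.134), but was called higher with equal protein-coding totals (0.56, adjusted p = 0.00137). The shared beta chain Il2rb, at 0.557, 0.247 and 0.620 in denervated and 0.138, 0.086 and 0.169 in control muscle, missed the level filter. Of 8 lymphocyte markers, among them Cd3e and Nkg7, none passed that filter. Their summed level was 0.578 to 1.16 in denervated and 0.234 to 0.395 in control muscle. Nkg7 alone was at 0.791, 0.402 and 0.630 in denervated and 0.117, 0.269 and 0.237 in control muscle. Each of the other lymphocyte markers overlapped between the groups.

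**Figure D2:**
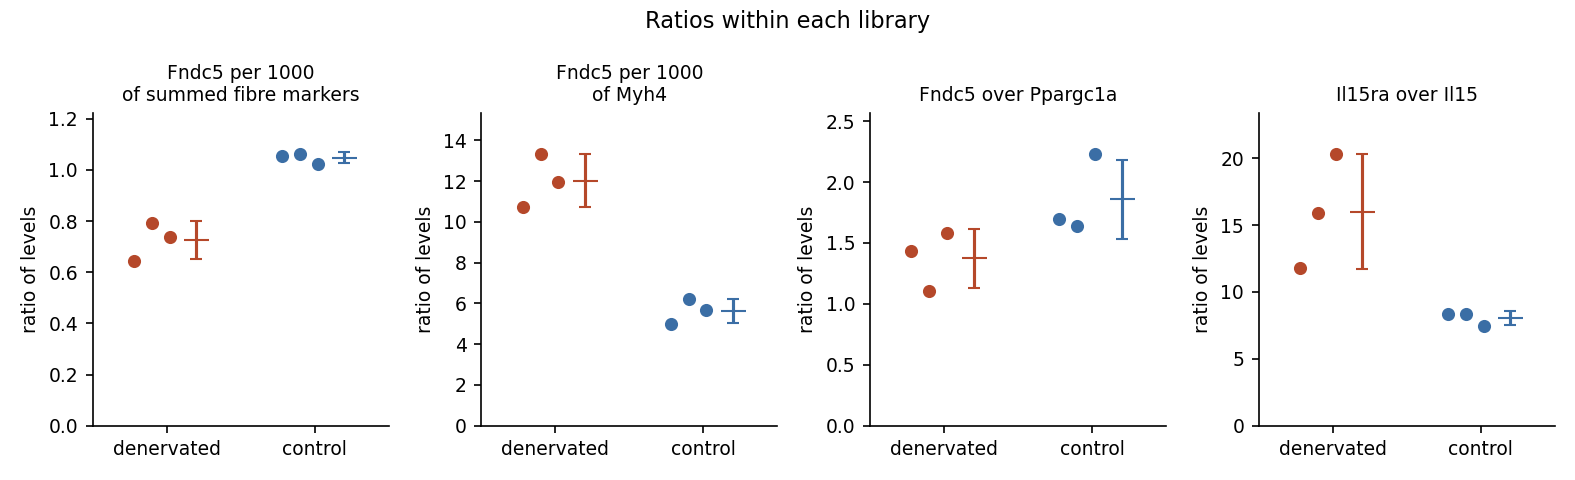
Ratios of transcript levels within each library, in the 3 denervated (left) and 3 control (right) muscles; points are single mice and the dash with its bar is the mean ± SD. Fndc5 was lower relative to the summed fibre markers and to Ppargc1a but higher relative to Myh4, and Il15ra over Il15 was higher, with no overlap in these 4 panels.

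Metrnl, meteorin-like, is a secreted protein known from exercised muscle and from fat. Its level was 0.899, 1.03 and 0.833 in denervated muscles, against 1.63, 0.548 and 0.722 in controls. The denervated values lay inside the control range, and control 1 stood above the other two. Metrnl (ENSMUSG00000039208) had a log2 fold change of 0.004 (SE 0.189, adjusted p = 0.988), which was 0.23 (adjusted p = 0.122) without control 1. With equal protein-coding totals it was called at 0.43 (adjusted p = 0.0422), below the median of all genes under that scaling. As deposited it lay 0.015 above the median. The added 1 damps the shift of low genes under a scaling, so the place of Metrnl against the median is not comparable between scalings. Its relative Metrn, meteorin, fell to 4.42 ± 1.24 in denervated muscle, against 6.92 ± 0.342 in controls (SD, n = 3 each). The Metrn call (log2 fold change -0.57, adjusted p = 0.0201) was lost without denervated 1 or control 1 (adjusted p = 0.0642 and 0.0551), and was absent with equal protein-coding totals (0.19, adjusted p = 0.311). Kit, reported as a receptor of Metrnl in the mouse heart, missed the level filter.

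Apln encodes apelin, a peptide of vessels, muscle and fat that acts through the receptor Aplnr. Its level was 0.322, 0.299 and 0.406 in denervated muscles, against 0.340, 0.408 and 0.293 in controls. The groups overlapped fully, with means of 0.342 ± 0.056 in denervated and 0.347 ± 0.058 in control muscle (SD, n = 3 each). Without a filter Apln (ENSMUSG00000037010) had a log2 fold change of -0.005 (SE 0.060, adjusted p = 0.964). When protein-coding totals were also set equal it was called at 0.22 (adjusted p = 0.0238), where the median of all rows was 0.25. Aplnr was at 1.86, 2.22 and 2.21 in denervated and 2.28, 2.78 and 1.24 in control muscle and was not called either (log2 fold change 0.030, SE 0.187, adjusted p = 0.911). Aplnr was called higher with equal protein-coding totals (0.63, adjusted p = 0.0112). A p that misses the threshold does not show that these levels were alike. In the same libraries the summed level of 8 endothelial markers was 57.9 to 58.9 in denervated and 93.3 to 105 in control muscle, with 7 markers lower and 1, Vwf, higher, as deposited.

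Gdf15 encodes a distant member of the TGF-beta family that signals through Gfral and Ret in the hindbrain and is known as a target of p53 and of the integrated stress response. Its level was 0.449, 1.17 and 0.972 in denervated muscles, against 0.074, 0 and 0 in controls. Every denervated muscle was above every control, and 2 controls are listed at 0, so no fold is given. With no level filter, where 25.6% of 22156 rows were called (12.5% lower and 13.1% higher), Gdf15 (ENSMUSG00000038508) rose by 0.84 on the log2(level + 1) scale (SE 0.151, limma adjusted p = 0.00886). That call was lost without denervated 3 (0.79, adjusted p = 0.0511) and held without any other single library. The mean level in denervated muscle lay above no more than 42.8% of protein-coding rows.

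Fgf21 encodes a hormone made mainly by liver, which muscle is known to produce under mitochondrial stress and which acts through Fgfr1 with the co-receptor Klb. Its level was 0.088, 0.113 and 0.267 in denervated muscles, against 0, 0.075 and 0 in controls. The denervated values were higher without overlap, but denervated 1 and control 2 lay close together. With no level filter Fgf21 (ENSMUSG00000030827) had a log2 fold change of 0.17 (SE 0.066, adjusted p = 0.114) and was not called. It was called at 0.25 (adjusted p = 0.0376) when protein-coding totals were also set equal, the same as the median of all rows there. Among markers of liver, Alb was at 0.088, 0.010 and 0.011 in denervated muscles and listed at 0 in controls, Serpina1a was not called, and Ttr was at 14.0 to 15.6 in denervated muscles and listed at 0 in all controls.

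The promoter windows of Fgf21 and Gdf15 are shown because these were the members that stood higher in denervated muscle. The RefSeq table (GRCm38.p6) holds 1 window for Fgf21, chr7:45615441-45615740, and 2 for Gdf15, chr8:70632407-70632706 (window A) and chr8:70632046-70632345 (window B), all on the minus strand and printed 5′ to 3′ on the strand of the gene. Capitals mark every match to the 5 motifs named above. In Fgf21 the first capitals, TTGCATCA, are the C/EBP-ATF motif on the opposite strand, starting 139 bases before the gene's start. That motif was in 3.97% of all windows and in neither Gdf15 window. All other capitals are E-boxes, 3 in Fgf21, 1 in window A and 3 in window B.
Fgf21: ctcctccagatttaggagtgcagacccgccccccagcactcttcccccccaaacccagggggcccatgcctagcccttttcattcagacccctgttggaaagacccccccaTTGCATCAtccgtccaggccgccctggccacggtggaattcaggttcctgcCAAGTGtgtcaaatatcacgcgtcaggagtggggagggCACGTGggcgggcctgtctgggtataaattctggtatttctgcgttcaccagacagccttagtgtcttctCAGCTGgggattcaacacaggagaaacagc
Gdf15, window A: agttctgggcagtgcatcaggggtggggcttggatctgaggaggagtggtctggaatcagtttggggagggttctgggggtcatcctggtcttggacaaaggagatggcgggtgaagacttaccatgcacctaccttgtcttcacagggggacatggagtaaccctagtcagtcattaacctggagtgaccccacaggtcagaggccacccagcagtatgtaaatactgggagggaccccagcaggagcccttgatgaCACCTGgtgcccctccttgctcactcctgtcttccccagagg
Gdf15, window B: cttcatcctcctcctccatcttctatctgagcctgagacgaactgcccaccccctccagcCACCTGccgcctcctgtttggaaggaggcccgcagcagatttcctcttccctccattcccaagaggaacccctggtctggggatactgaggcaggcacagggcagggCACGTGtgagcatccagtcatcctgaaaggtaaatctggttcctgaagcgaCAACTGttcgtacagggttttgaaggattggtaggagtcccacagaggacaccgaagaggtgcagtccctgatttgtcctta
A match is a string of letters and not a shown binding site. Apln held 3 E-boxes and Metrnl 1, and neither held any of the other 4 motifs. The table gave windows for 5 of the 7 members, and Ostn and Il15 were not among them.

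Only Fndc5 held the same clear rank in both groups, and Gdf15 stood just below Metrnl in denervated muscle and last in controls. Fndc5 was highest in denervated and control muscle, apart from all others. In denervated muscle Metrnl, Gdf15, Il15 and Apln followed, each overlapping its neighbour, then Ostn, apart from Apln, and Fgf21, which overlapped Ostn. In controls Il15, Metrnl and Ostn followed Fndc5, each overlapping the next, then Apln, apart from Ostn, and below it Fgf21 and Gdf15, which overlapped.

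**Figure D3:**
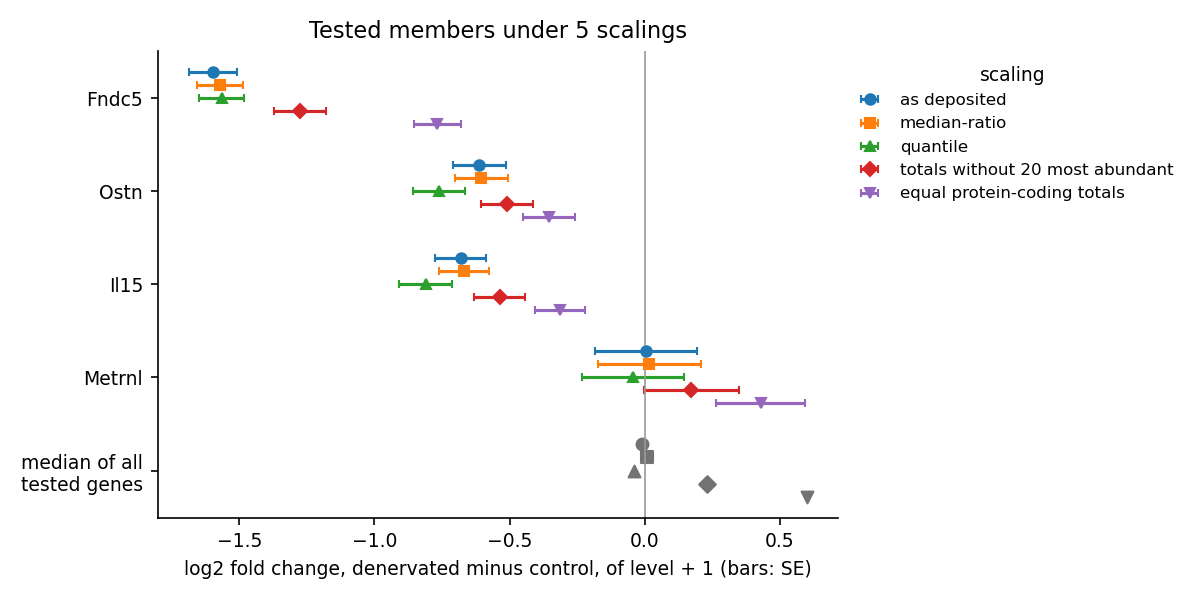
Log2 fold changes (denervated minus control, of level + 1) of the 4 tested members under 5 scalings of the libraries, with SE, and the median of all tested genes in grey. Fndc5, Ostn and Il15 stay below 0 and below the median of all genes under each of the 5, whereas Metrnl lies near 0 as deposited and at 0.43 with equal protein-coding totals.

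Scaling moved the size of the 3 falls but not their side of the threshold. The tested genes stayed those past the filter as deposited, which Ostn and Il15 passed only through the controls. Under median-ratio scaling, quantile normalization, totals without the 20 most abundant genes and equal protein-coding totals, Fndc5 lay between -1.57 and -0.77, Ostn between -0.76 and -0.35 and Il15 between -0.81 and -0.31. The smallest change of each came with equal protein-coding totals. Taken less the median of all genes under that scaling, Ostn stood at -0.96 and Il15 at -0.91, against -0.60 and -0.67 as deposited. Adding 1 before the logarithm damps the shift that a scaling gives to genes at such low levels. These differences from the median are therefore not comparable between scalings.

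Receptors of the 7 factors changed in both directions. Of 16 receptor and co-receptor genes in the table, 12 were tested, 6 were higher and 4 lower. Their median log2 fold change was 0.29, against -0.01 for all genes tested, of which 22.9% were higher and 24.3% lower. Fgfr2 among the higher and Ret among the lower receptors passed the filter only through the group where they were high. Neither the counts nor the median therefore supports a direction of the list. Equal protein-coding totals gave 9 higher and 1 lower, with medians of 0.70 for the receptors and 0.60 for all genes. Under that scaling 9038 of all 12392 genes were higher and 668 lower. Itgav and Itgb5, integrin chains reported as an irisin receptor in mouse, both rose. Itgav averaged 7.25 ± 0.684 in denervated and 4.37 ± 0.563 in control muscle, and Itgb5 27.6 ± 0.984 in denervated and 21.2 ± 0.184 in control muscle (SD, n = 3 each). Their log2 fold changes were 0.62 (adjusted p = 0.00268) for Itgav and 0.36 (adjusted p = 0.00571) for Itgb5. The FGF receptor genes Fgfr3 and Fgfr2 rose by 0.77 and 0.52 on the log2 scale (adjusted p = 0.00187 and 0.0106; Fgfr2 passed the filter only through denervated muscle), and Fgfr1, the main partner of Fgf21, by 0.39 (adjusted p = 0.0114). The co-receptor Klb stayed at 0.051 or less in every library.

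Ret, the signalling partner of the Gdf15 receptor, fell. It was at 0.234, 0.175 and 0.342 in denervated muscles, against 0.841, 1.16 and 1.08 in controls. The groups were well separated (log2 fold change -0.70, SE 0.101, adjusted p = 0.000947). Ret also serves ligands of the GDNF family, and it passed the filter only through the controls. No row of the gene table carried the symbol Gfral, so its level is not known here.

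Relatives and paired ligands were lower or not called. Of 5 tested genes 3 were lower and none higher by limma, and the median log2 fold change was -0.55. Among all genes tested, 24.3% were lower and 22.9% higher, with a median of -0.01. The count of lower relatives includes Fgf2, whose value is also the median of the list. Fgf2 passed the filter only through the controls, so neither figure supports a direction of the list. Setting protein-coding totals equal gave 2 higher and 2 lower relatives, and a median of 0.19. Under that scaling 9038 of all 12392 genes were higher and 668 lower, with a median of 0.60. Fgf1, a paracrine growth factor, was at 2.94, 2.45 and 4.13 in denervated muscles, against 10.4, 6.83 and 8.69 in controls. It fell by 1.21 on the log2 scale (SE 0.183, adjusted p = 0.00119), and Fgf2, another such factor that passed the filter only through the controls, fell by 0.55 (adjusted p = 0.00425). Fndc3a and Fndc3b, named for the same type of domain as Fndc5, were not called (log2 fold changes 0.16 and 0.22, adjusted p = 0.559 and 0.137). They were the 2 called higher with equal protein-coding totals (0.81 and 0.82, adjusted p = 0.00671 and 0.000277).

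Enzymes that process or break down secreted peptides split by gene. Of 8 tested genes 3 were higher and 2 lower, and the median log2 fold change was -0.24. Among all genes tested, 22.9% were higher and 24.3% lower, with a median of -0.01. Setting protein-coding totals equal gave 4 higher and 1 lower enzymes, and a median of 0.33. Under that scaling 9038 of all 12392 genes were higher and 668 lower, with a median of 0.60. Ece1, endothelin-converting enzyme, rose to 40.4 ± 6.45 in denervated muscle, against 13.2 ± 1.69 in controls (SD, n = 3 each), a log2 fold change of 1.53 (SE 0.137, adjusted p = 8.03e-05). Prep, a peptidase that cuts after proline, rose by 0.79 (adjusted p = 0.000175). Furin, a proprotein convertase, was higher by 0.45 (adjusted p = 0.0332), a call that was lost when any library other than denervated 1 was left out (adjusted p between 0.0513 and 0.101). Pcsk6, another convertase, fell to 1.96 ± 0.079 in denervated muscle, against 5.11 ± 0.735 in controls (SD, n = 3 each; log2 fold change -1.04, adjusted p = 0.000198), and Mme, neprilysin, which degrades natriuretic peptides, fell by 0.60 (adjusted p = 0.00233). The call of Mme was lost with equal protein-coding totals (-0.14, adjusted p = 0.258).

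**Figure D4:**
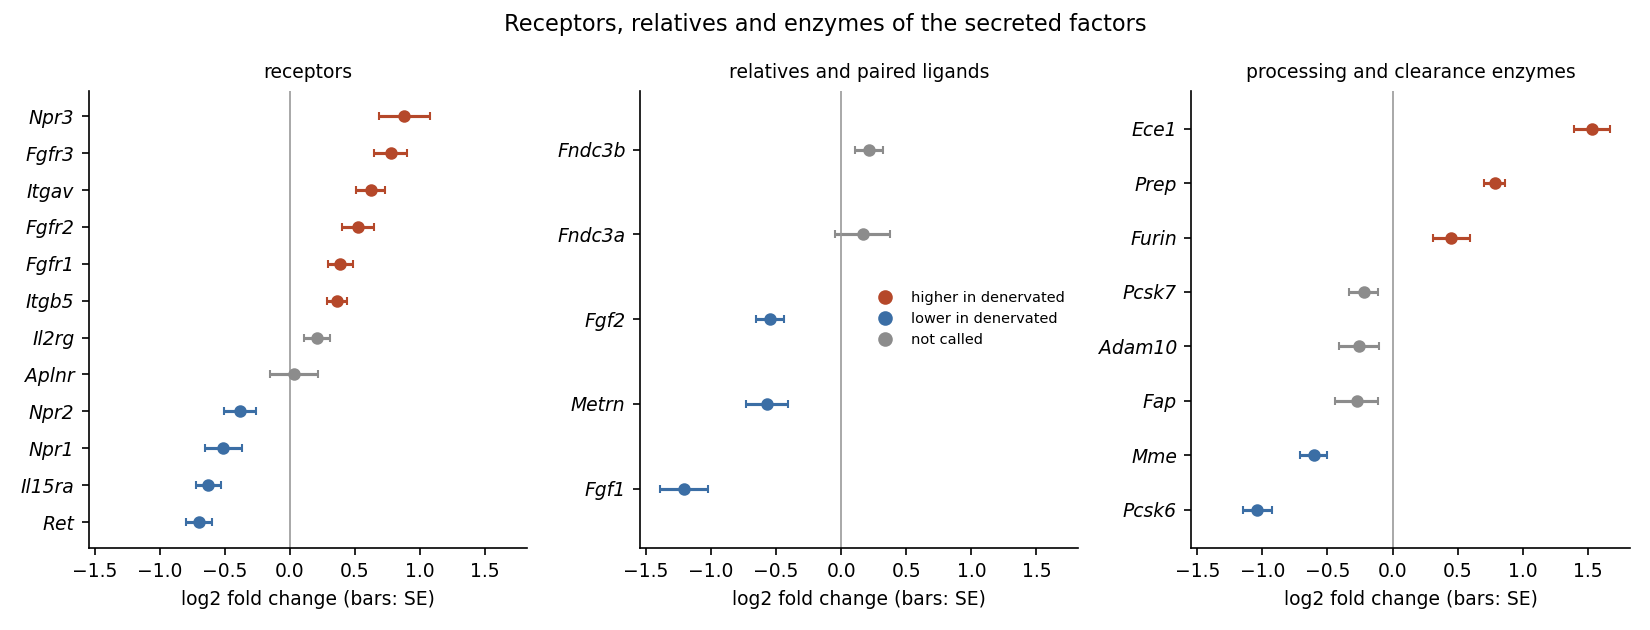
Log2 fold changes (denervated minus control, of level + 1) with SE for the tested receptors, relatives and paired ligands, and processing and clearance enzymes of the secreted factors. Red points were called higher in denervated muscle, blue points lower, and grey points were not called, with Ece1 at 1.53 and Fgf1 at -1.21 at the ends.

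Genes known to regulate the 7 factors also went both ways, with 8 of 18 tested higher and 6 lower (median log2 fold change 0.17). Equal protein-coding totals made these 12 and 1 (median 0.89). Among all genes tested, 22.9% were higher and 24.3% lower as deposited (median -0.01). With protein-coding totals equal, 9038 of all 12392 genes were higher and 668 lower (median 0.60). The higher regulators were led by the myogenic factors Myog and Myod1, at log2 fold changes of 4.98 and 1.99, Mef2a, at 0.98, and Trp53, at 0.86 (adjusted p = 2.81e-07, 3.13e-05, 4.56e-05 and 0.000597). The lower regulators were led by Ppargc1a and Esrra, then Tfeb, a regulator of lysosome genes, at -0.81 and Atf4 at -0.78 (adjusted p = 0.00200 and 0.000333 for the last pair). Atf4 and Tfeb were not called with equal protein-coding totals (0.098 and 0.031, adjusted p = 0.340 and 0.836). Beside Gdf15 and Fgf21, the stress-response genes were mixed. Atf4, which drives that response mainly through translation, was at 33.7, 31.1 and 30.5 in denervated muscles, against 53.2, 52.2 and 60.4 in controls. Atf3 and Atf5, chosen after their values were seen, rose by 0.58 and 0.50 (adjusted p = 0.00265 and 0.00562). Ddit3 and Asns, chosen in the same way, were not called (log2 fold changes -0.39 and 0.19, adjusted p = 0.119 and 0.342), but Asns was called higher with equal protein-coding totals (0.49, adjusted p = 0.0185).

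Other secreted factors of muscle gave the same mixed picture, with 10 of 22 tested higher and 6 lower (median log2 fold change 0.18). Equal protein-coding totals made these 16 and 3 (median 0.87). Among all genes tested, 22.9% were higher and 24.3% lower as deposited (median -0.01). With protein-coding totals equal, 9038 of all 12392 genes were higher and 668 lower (median 0.60). Timp1, an inhibitor of matrix proteases, was at 9.59, 27.0 and 21.3 in denervated muscles, against 0.277, 0.172 and 0.124 in controls. Fst, follistatin, Lgals3, a lectin of macrophages, and Cx3cl1, a chemokine, rose by 3.25, 3.18 and 1.55 on the log2 scale, and Timp1 rose by 3.98 (adjusted p = 8.21e-07, 4.65e-06, 0.000303 and 4.69e-05). Among the higher genes Timp1, Fst, Cx3cl1, Ccl2 and Chi3l1 passed the level filter through denervated muscle, where they were high. Their calls support nothing about the list, so neither the count of higher genes nor the median supports a direction of the list. Mstn, myostatin, Vegfa, a vessel growth factor, Sparc, a matrix protein, and Nampt, an enzyme of nicotinamide salvage also found in blood, fell by 2.28, 1.69, 1.27 and 0.83 (adjusted p = 1.95e-05, 1.53e-05, 0.000304 and 0.000724). Nampt was not called with equal protein-coding totals (-0.002, adjusted p = 0.990).

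Markers of other cell types changed in the same muscles. The summed level of 7 macrophage markers was 45.9 to 55.7 in denervated and 21.8 to 27.4 in control muscle, with 5 higher and Emr1 and Mrc1 not called, whereas all 7 were called higher with equal protein-coding totals. The 5 adipocyte markers summed to 3.91 to 5.14 in denervated and 0.711 to 2.38 in control muscle. Markers of fibro-adipogenic progenitors (115 to 132 in denervated, 177 to 201 in control muscle), pericytes and smooth muscle (40.2 to 44.8 in denervated, 109 to 116 in control muscle) and Schwann cells (3.22 to 3.74 in denervated, 8.40 to 12.5 in control muscle) were lower in sum as deposited. These falls depended on the scaling. As deposited, 7 of 8 endothelial, 5 of 7 progenitor and all 6 pericyte and smooth muscle markers were called lower. With equal protein-coding totals 2 endothelial, 0 progenitor and 3 pericyte and smooth muscle markers were called lower by limma, and 1, 2 and 2 were called higher, among them Pdgfrb and Notch3 of pericytes (0.34 and 0.26, adjusted p = 0.0188 and 0.0477). Those of satellite cells overlapped in sum, at 2.76 to 3.03 in denervated and 2.10 to 3.43 in control muscle. Of the 2 tested by limma, Myf5 was higher (0.78, adjusted p = 0.00786) and Chodl lower (-0.51, adjusted p = 0.00655). Myf5 passed the filter through denervated muscle, and Chodl was not called with equal protein-coding totals (-0.04, adjusted p = 0.758). The part of these cells in the levels of Gdf15, Fgf21, Apln or Il15 was not tested.

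For each tested member, the 3 genes with the most similar profile over the 6 libraries were found by the Euclidean distance between mean-centred log2(level + 1) values. Fndc5 lay nearest to Itm2a (distance 0.131), Vdac1 (0.137) and Slc47a1 (0.155). Vdac1, a channel of the outer mitochondrial membrane, averaged 97.6 ± 6.67 in denervated and 278 ± 19.1 in control muscle (SD, n = 3 each). Ostn lay nearest to Nfia (0.098), Myct1 (0.107) and Tob2 (0.110), and Il15 to Ptcd3 (0.090), Paip2b (0.099) and Dnaja3 (0.110). Metrnl lay nearest to Btg3 (0.116), Zfp407 (0.203) and E030024N20Rik (0.209). With 2 groups of 3 such a distance mostly measures an equal fold change, and these names are a description only.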

How the data were processed

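RNA of whole left gastrocnemius from 3 denervated and 3 control mice was sequenced with paired-end reads of 50 bp after a standard Illumina mRNA protocol, per the labels' protocols. Each replicate is its own mouse. The submitters' processing notes list RSEM 1.3.0, Bowtie2 2.2.9 and edgeR 3.12.1, and as build NCBIM37, without saying what each did. Strand setting, annotation release and filters are not stated. For every gene and library, the authors deposited 1 expression signal. No source names its unit, which was inferred: below 100, 100% of values above 0 lay within 0.00055 of a whole multiple of 1 step per library, as TPM rounded to 0.01 and multiplied by a factor would. Depth is therefore unknown, and an exact 0 may be a low level that rounded to 0 or a failed estimate. A count test had been planned for a table of counts and was not needed.

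Values were used as deposited. Genes at 0.5 or more in at least 3 libraries were tested on log2(level + 1) with limma 3.58.1 in R 4.3.3 (intensity trend, 4 residual degrees of freedom, two-sided, Benjamini-Hochberg over all genes tested, threshold 0.05), a procedure tested on simulated data. The members and gene lists were chosen with earlier results of these data known. The named genes are all members, up to 4 called genes per direction and list, and the 3 nearest profiles per tested member. Others are said to have been chosen after their values were seen, as were Itgb5, Fgfr1, Klb, Aplnr, Il2rg, Il2rb, Kit, Fndc3a, Fndc3b, Nppa, Nppc, Ccl2, Chi3l1, Myf5 and Chodl. The within-library ratios were also chosen after the values were seen. Promoter sequences are from RefSeq (GRCm38.p6), matched by symbol. Across genes, libraries of 1 group correlated at a Spearman rho of 0.940 to 0.956, and libraries of different groups at 0.899 to 0.907.

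As alternatives, each library was left out in turn, replicate number was a block, 4 other scalings were used, the filter was dropped or set to a mean level of 1, the pseudocount was 0.1 or 0.01, and limma ran with robust variances or no trend. Chosen after seeing the data were levels divided by the library factor and, for members below the filter, dropping it together with other settings.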

Additional observations from a re-analysis of the deposited data

How the results depend on the processing

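The falls of Fndc5, Ostn and Il15 kept their direction and their call under every alternative that could test them. The fits without single libraries and with other scalings kept the genes that passed the filter on all 6 libraries as deposited. Ostn and Il15 passed it only through the controls, so those fits give no separate support for their calls. With no filter both were called lower (limma adjusted p = 0.00339 for Ostn and 0.00273 for Il15). A mean level of 1 or more left Fndc5 as the only tested member, so that 1 member was called lower there. Without each library in turn, the log2 fold change was -1.65 to -1.55 for Fndc5, -0.69 to -0.56 for Ostn and -0.72 to -0.63 for Il15. Replicate numbers are shared between the groups, but same-numbered libraries deviated together with correlations of only -0.007, -0.099 and 0.019. The fit with the replicate block left the members' log2 fold changes at -1.60, -0.61, -0.68 and 0.004 and called 2636 genes higher and 2772 lower.

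Metrnl had no stable direction. It was -0.043 with quantile normalization, between -0.15 and 0.23 without single libraries, and 0.43 with equal protein-coding totals, where it was called and made 1 member higher. Members below the filter had no test as deposited. Without a filter Gdf15 was called (0.84), which again made 1 member higher. Its value was 1.07 with equal protein-coding totals, 2.92 with a pseudocount of 0.1 (called at the first and second of these settings when the filter was dropped), 5.32 with a pseudocount of 0.01, and 0.72 to 1.02 without single libraries (0.88 without control 1, 0.83 without control 2 or control 3, 0.79 and not called without denervated 3). Fgf21 was 0.25 with equal protein-coding totals and no filter (called, adjusted p = 0.0376), 1.02 and 2.87 with pseudocounts of 0.1 and 0.01, and 0.10 to 0.21 without single libraries. Apln was 0.084 with totals without the 20 most abundant genes, 0.22 with equal protein-coding totals (called without a filter, adjusted p = 0.0238), and -0.04 to 0.03 without single libraries. Under equal protein-coding totals without a filter the median of all rows was 0.25.

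Over all genes, 2840 were called higher and 3017 lower as deposited, 4966 and 1614 with totals without the 20 most abundant genes (75.5% of calls higher against 48.5%), and 9038 and 668 with equal protein-coding totals (93.1%). Without single libraries there were 2390 to 2556 higher and 2456 to 2742 lower. Lower receptors were 2 with totals without the 20 most abundant genes, 1 with equal protein-coding totals, 2 with no filter and 2 to 4 without single libraries, the 2 without denervated 2. Higher relatives were 1 with totals without the 20 most abundant genes, 2 with equal protein-coding totals and 0 to 1 without single libraries, the 1 without control 2. With equal protein-coding totals 1 enzyme and 1 regulator were lower, and of other secreted factors 16 were higher and 3 lower. The cause of these shifts was not tested. Unknown depth limits all statements on Apln, Gdf15 and Fgf21.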
